A study of Mus musculus with 3 samples.

Results

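The set described here holds genes that build and maintain the primary cilium, in nuclei of whole mouse hearts at embryonic day 9.5. It was chosen by symbol: 39 genes were listed, and 38 of them had a row among the 27998 genes of the count tables. Tctn2 had none under that symbol and is not analysed here. By role the 38 are 11 genes of intraflagellar transport complex B (IFT-B), 6 of complex A (IFT-A), 4 motor subunits, 2 small GTPases, 6 BBSome subunits, 6 transition zone genes and 3 genes of the basal body and its distal appendages. The rule uses no measured value, but the set was proposed with earlier results of these data known.

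Single-nucleus RNA sequencing compared 3 genotypes of Ncx1, an alias of Slc8a1, which moves calcium out of heart muscle cells in exchange for sodium. The groups are Ncx1+/+ (wild type), Ncx1+/- (heterozygous) and Ncx1-/- (mutant on both alleles). All 3 groups are otherwise described alike, as flash-frozen whole hearts of the same stage. For each genotype 5 hearts were pooled into 1 library, so no value has a replicate check, no test between genotypes was possible, and the spread between hearts is not measured. Which part of the gene the mutant allele lacks, and its strain, are not given in the sources used here. By its title the series asks how endocardial cilia and flow act on the change of endocardial cells into cushion mesenchyme. Values below are always in the order Ncx1+/+, Ncx1+/-, Ncx1-/-.

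A primary cilium is a single, non-motile projection that grows from a modified centriole, the basal body, and carries receptors such as those of hedgehog signalling. Trains of IFT-B and IFT-A proteins move along it, outward on kinesin-2 and back on cytoplasmic dynein-2, and the BBSome carries membrane proteins with them. The transition zone at its base forms a gate that limits which proteins enter. In the early heart primary cilia have been described on endocardial, muscle and epicardial cells, whereas most blood cells carry none. Transcripts in nuclei do not show whether a cell carried a cilium.

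Many cilium genes have an X-box near their start, the motif bound by RFX transcription factors. The RefSeq promoter table (GRCm38.p6, the release of the mm10 build) held 35 windows for 34 of the 39 listed genes, each read over the 250 bases before the start. Ift80, Ift81, Ift122, Tmem67 and Dync2li1 had no window in it. The full X-box was searched on both strands as GTNNCC, any 2 bases and GGNNAC, where N is any base. It was found in 6 of 35 windows (17.1%), against 515 of 32851 windows (1.57%) over all genes and 6 of 98 windows (6.12%) of other cilium genes. The 6 genes were Bbs7, Ift22, Ift57, Mks1, Tctn2 and Wdr19. The shorter motif GTTGCC, which can be the first 6 letters of the full one, was found in 7 of 35 member windows (20%), 10.4% of all windows and 13.3% of those of other cilium genes. A match is a description of letters, not a measured binding site.

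Sequences are shown for the 5 members that stood apart in 1 genotype in endocardial nuclei (Ift20, Ift22, Mks1, Wdr35 and Wdr19, values further on) and for Ift57, whose ratio differed in direction between 2 classes. Each is the 130 bases that end at the last base before the start, on the gene's own strand, from 5′ to 3′, and capitals mark every match to either motif. All 6 genes lie on the plus strand. The start is that of the RefSeq table. The GENCODE annotation, used for gene spans further on, begins Wdr35 at chr12:8973892 and Ift57 at chr16:49699233, inside the windows shown. The windows are chr11:78536231-78536360 for Ift20, chr5:136908020-136908149 for Ift22, chr11:87853085-87853214 for Mks1, chr12:8973871-8974000 for Wdr35, chr5:65199566-65199695 for Wdr19 and chr16:49699164-49699293 for Ift57.
Ift20: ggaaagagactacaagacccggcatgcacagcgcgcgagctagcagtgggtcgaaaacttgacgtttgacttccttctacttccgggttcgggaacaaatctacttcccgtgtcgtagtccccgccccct
Ift22: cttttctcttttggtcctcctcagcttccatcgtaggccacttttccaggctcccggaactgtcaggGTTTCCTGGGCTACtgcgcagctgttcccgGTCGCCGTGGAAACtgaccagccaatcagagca
Mks1: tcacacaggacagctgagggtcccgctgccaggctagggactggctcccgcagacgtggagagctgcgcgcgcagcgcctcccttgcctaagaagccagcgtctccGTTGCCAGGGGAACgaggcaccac
Wdr35: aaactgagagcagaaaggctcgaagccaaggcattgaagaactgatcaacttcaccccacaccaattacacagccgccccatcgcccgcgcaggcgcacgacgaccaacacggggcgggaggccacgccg
Wdr19: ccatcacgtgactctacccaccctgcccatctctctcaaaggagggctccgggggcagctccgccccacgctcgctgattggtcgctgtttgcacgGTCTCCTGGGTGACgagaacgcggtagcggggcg
Ift57: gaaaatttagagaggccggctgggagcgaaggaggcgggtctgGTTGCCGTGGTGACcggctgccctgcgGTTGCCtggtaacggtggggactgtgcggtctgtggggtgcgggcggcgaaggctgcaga
Counted back from the start, the longer motif begins 63 and 33 bases upstream in Ift22, 24 in Mks1, 34 in Wdr19 and 87 in Ift57. Of the 3 members higher in Ncx1-/- endocardial nuclei, Ift22 and Mks1 hold it, and the Ift20 window holds neither motif. Nor does that of Wdr35, the member that was lower.

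The libraries held 12525 to 13805 barcodes and 49022310 to 59898298 unique molecular identifiers (UMIs), with median UMIs per barcode of 3460 to 3863. After filters on detected genes, mitochondrial reads and doublets, 12464, 11267 and 11231 nuclei were used. Slc8a1 itself stood at 11829, 6540 and 1033 counts per 1000000 UMIs (CPM), so its level in Ncx1+/- was 55.3% and in Ncx1-/- 8.74% of that in Ncx1+/+. The libraries shared 40 to 57 barcodes in pairs. The nuclear RNA Malat1 took 4.68, 4.95 and 8.43% of all UMIs, so the Ncx1-/- library stands apart in a measure that is outside the cilium genes.

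Nuclei were grouped by clustering and fixed markers. Cardiomyocytes numbered 8360, 7737 and 7894, endocardial nuclei 2307, 2041 and 1621, and erythroid nuclei 503, 472 and 100. Within the endocardial lineage a mesenchyme-type sub-cluster, number 9, held 217, 120 and 7 nuclei. Of 16 markers of cushion mesenchyme, 7 stood at 1.5 times or more their level in the rest of the lineage, among them Sox9, Pdgfra and Twist1. Its summed endothelial markers stood at 2365, 2519 and 2581 CPM against 7271, 7292 and 7552 CPM in the endocardial class and 146, 150 and 161 CPM in cardiomyocytes. Its size hung on the processing: other settings gave 224 to 660, 116 to 418 and 12 to 146 nuclei. With 7 nuclei the mutant group is too small here for a comparison of genotypes, and its levels are given mainly for the other 2 libraries.

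Cardiomyocyte markers were counted in the other classes too. Each of the 14 cardiomyocyte markers was set against its cardiomyocyte level, and the share given here is the median of the 14 ratios. It was 9.96, 11.5 and 14.1% in endocardial nuclei and 14.4, 18.2 and 21.1% in the mesenchyme-type nuclei. In erythroid nuclei it was 27.6, 32.6 and 46.9%. The share was highest in Ncx1-/- in each of these classes. All 14 markers were detected in each of these 3 classes, and none was at 0. Whether these counts came from cardiomyocyte RNA taken up by other nuclei was not tested. The part of such RNA in the results below was not tested either, except where a value is given or its subtraction is named. In pooled hearts a lower level can come from fewer transcripts in each nucleus or from fewer nuclei with any, and the summed counts do not tell these apart.

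Counts of cilium genes were found in every class, with the summed level highest in mesenchyme-type and lowest in erythroid nuclei. The 38 members together stood at 1176, 1151 and 1213 CPM in cardiomyocytes, with a 95% exact Poisson interval of 1164 to 1188 in Ncx1+/+. In endocardial nuclei they stood at 1131 (interval 1112 to 1151), 1108 and 1156 CPM, which was 95.6% of the cardiomyocyte level over the 3 libraries. Mesenchyme-type nuclei had the highest sum of the 4 classes, at 1455 (1383 to 1529) and 1373 (1269 to 1483) CPM in Ncx1+/+ and Ncx1+/-. The 7 Ncx1-/- nuclei gave 41 member counts, or 1411 CPM with an interval of 1012 to 1914. Erythroid nuclei had the lowest sum, at 908 (850 to 967), 882 (822 to 945) and 997 (874 to 1131) CPM. The order of classes was the same in each library: mesenchyme-type, cardiomyocyte, endocardial, erythroid. In Ncx1-/- the intervals overlapped between mesenchyme-type nuclei and cardiomyocytes and between endocardial and erythroid nuclei. All intervals in this text cover counting error only.

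**Figure D1:**
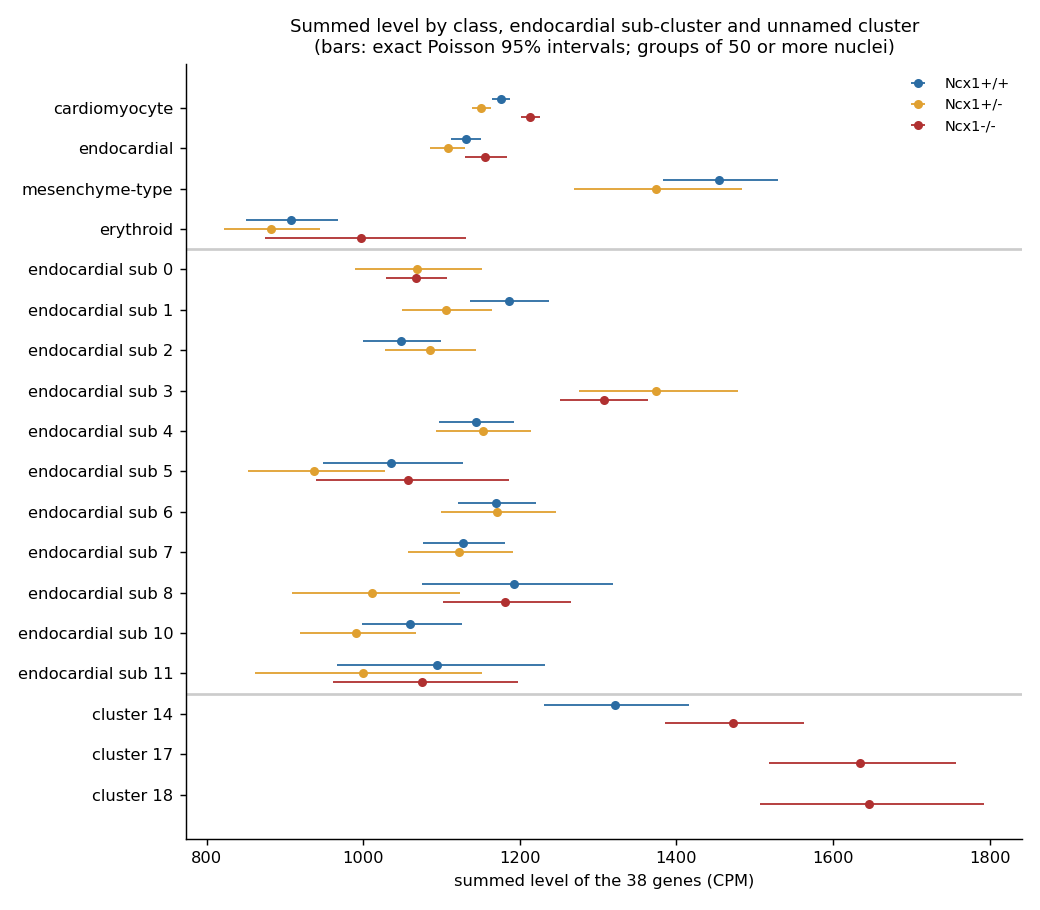
Summed level of the 38 cilium genes in CPM (x axis) in each class, endocardial sub-cluster and unnamed cluster with at least 50 nuclei in a library (y axis), by library (colours), with 95% exact Poisson intervals as bars; 1 library per genotype. Of the 4 named classes erythroid nuclei sit lowest, between 882 and 997 CPM, and mesenchyme-type nuclei highest, at 1455 and 1373 CPM.

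Almost every nucleus of the larger classes held at least 1 UMI of the set, and this share follows depth. Unthinned it was 95.8% of cardiomyocyte, 96.0% of endocardial, 99.1% of mesenchyme-type and 77.9% of erythroid nuclei, over the 3 libraries. With nuclei of at least 1500 UMIs thinned to that number it was 82.2, 80.0, 88.3 and 72.7%. Nuclei below that depth were left out, among them 127 of 503, 142 of 472 and 40 of 100 erythroid nuclei. In cardiomyocytes 370 of 8360, 345 of 7737 and 199 of 7894 were left out. Median UMIs per nucleus were 3676, 3364 and 3579 in cardiomyocytes and 1856, 1770 and 1657 in erythroid nuclei.

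**Figure D2:**
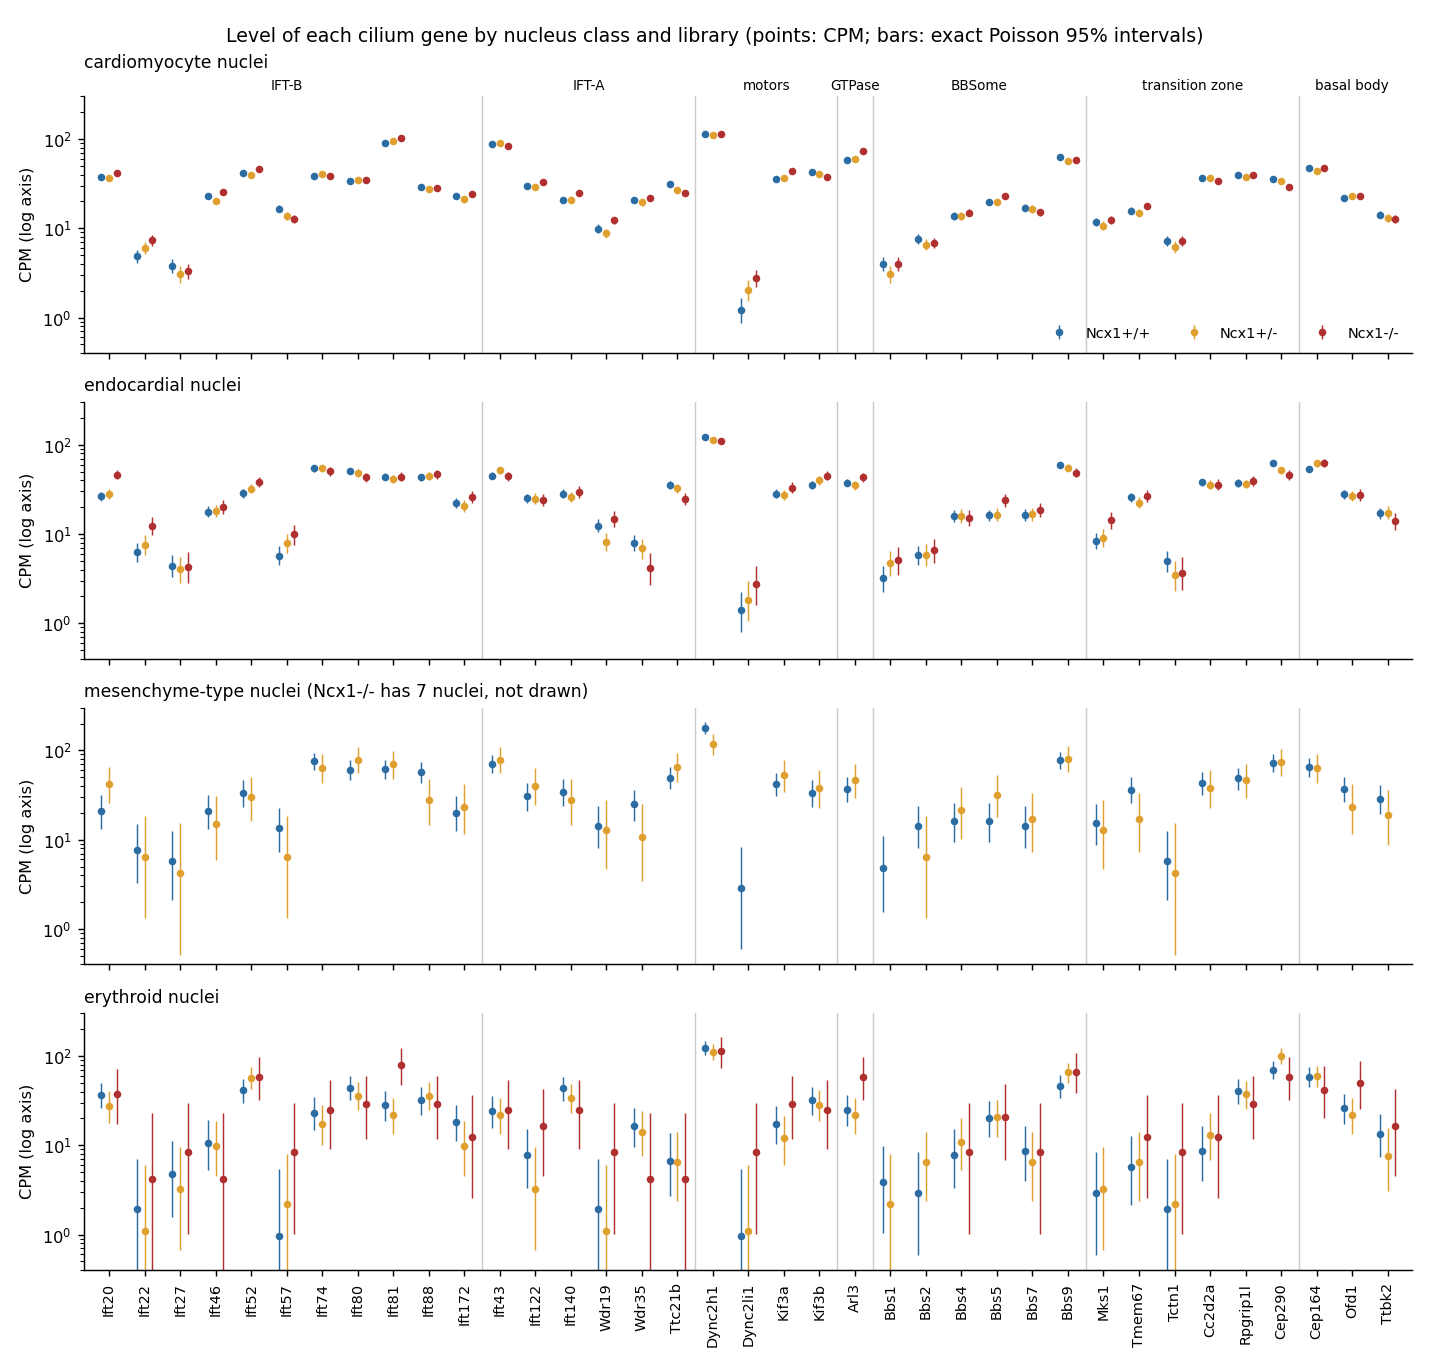
Level of 37 of the 38 genes in CPM (y axis, log scale) by gene, ordered by role (x axis), with 1 panel per class, 1 colour per library and 95% exact Poisson intervals as bars; a count of 0 has no point, and the 7 Ncx1-/- mesenchyme-type nuclei are not drawn. Cep290 sits higher in endocardial than in cardiomyocyte nuclei, and Wdr35, Ift81 and Ift43 lower.

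The members had enough counts for a comparison of single genes in cardiomyocytes and endocardial nuclei. In cardiomyocytes all 38 had at least 100 counts over the 3 libraries, the minimum used here for a genotype comparison, from 183 for Dync2li1, the light intermediate chain of dynein-2, to 10480 for Dync2h1, its heavy chain. In endocardial nuclei 37 did, all but Dync2li1 with 49 counts. Only 7 did in mesenchyme-type nuclei and 5 in erythroid nuclei.

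IFT-B, the complex that works with outward transport, had a lower sum in endocardial than in cardiomyocyte nuclei, which rested on Ift81. Its 11 genes summed to 342, 338 and 365 CPM in cardiomyocytes and 304, 307 and 342 CPM in endocardial nuclei, which is 90.1% of the cardiomyocyte level (counting interval 87.9 to 92.3%). A member was called higher or lower between classes where its level differed by at least 1.5 times in each of the 3 libraries and the counting interval of the pooled ratio excluded 1. Applied to all 14572 measured genes, that rule found 15% higher in endocardial than in cardiomyocyte nuclei and 22.9% lower. Of the 38 members 2 were higher and 4 lower, both shares below these backgrounds.

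Ift81, an IFT-B core subunit that binds tubulin, was the only IFT-B gene called. It stood at 90.6, 94.4 and 102 CPM in cardiomyocytes and at 43.7, 41.3 and 44.0 CPM in endocardial nuclei, so the ranges did not overlap. It was 2.23-fold lower (2.09 to 2.37). In each library this difference was larger than that between the IFT-B sums, so the other IFT-B genes together were not lower. The Ift81 gene overlaps another gene on its own strand, so reads of the pair may have been split between them. Ift88, needed for cilium assembly, stood the other way, at 29.2, 27.8 and 28.6 CPM in cardiomyocytes and 43.4, 44.3 and 47.1 CPM in endocardial nuclei. It was higher in endocardial nuclei in all 3 libraries, but missed the 1.5-fold rule in 1 of them. With TMM scaling of the totals it passed, at 1.61, 1.64 and 1.51 times.

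IFT-A, which returns material to the cell body, was the group with the lowest endocardial level relative to cardiomyocytes, at 75.3% (72.7 to 77.9%). Its 6 genes summed to 154, 150 and 142 CPM in endocardial nuclei against 200, 197 and 200 CPM in cardiomyocytes. The difference rested on 2 genes. Wdr35 (IFT121) stood at 20.6, 19.6 and 21.9 CPM in cardiomyocytes and 7.92, 6.90 and 4.16 CPM in endocardial nuclei, 3.10-fold lower (2.65 to 3.63). Ift43 stood at 87.6, 91.3 and 83.5 CPM in cardiomyocytes against 45.1, 51.7 and 44.3 CPM in endocardial nuclei, 1.86-fold lower (1.75 to 1.97). Any cardiomyocyte RNA carried into endocardial nuclei would raise these endocardial levels, and its part was not tested.

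The motors did not separate these classes. Their 4 genes summed to 193, 192 and 200 CPM in cardiomyocytes and 188, 182 and 192 CPM in endocardial nuclei (95.7%, 92.7 to 98.7%). Dync2h1, the gene of the set with the most counts, stood at 114, 112 and 115 CPM in cardiomyocytes and 123, 112 and 111 CPM in endocardial nuclei. Its ranges overlapped. Kif3a and Kif3b, the kinesin-2 motor subunits, were not called either.

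Of the small GTPases, Arl3, which releases lipidated cargo inside the cilium, stood at 58.9, 59.5 and 73.0 CPM in cardiomyocytes against 37.6, 35.1 and 43.2 CPM in endocardial nuclei. The ranges did not overlap, and it was 1.68-fold lower (1.57 to 1.79). With TMM scaling it did not pass the rule, since its ratio was 0.693 in Ncx1+/+.

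The BBSome was level between the classes, at 96.5% (92.7 to 100.4%), with 0 of 6 genes called. Bbs9, which had most of its counts, stood at 62.9, 56.7 and 57.8 CPM in cardiomyocytes and 60.0, 55.2 and 48.8 CPM in endocardial nuclei. Transition zone genes together stood higher in endocardial nuclei, at 118% (114 to 122%). They summed to 178, 159 and 165 CPM there against 148, 140 and 140 CPM in cardiomyocytes. Most of this difference came from Cep290 in each library. Cep290, a large protein that links the microtubules of the transition zone to its membrane, stood at 35.9, 33.9 and 29.1 CPM in cardiomyocytes and 63.0, 51.8 and 45.9 CPM in endocardial nuclei, 1.67-fold higher (1.57 to 1.78). Its ratio was 1.75, 1.53 and 1.58, close to the limit of the rule, and with TMM scaling it missed it in Ncx1-/- (1.45). Rpgrip1l, another transition zone gene, stood at 40.1, 37.3 and 39.5 CPM against 37.4, 36.3 and 38.9 CPM.

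Genes of the basal body and its appendages, where cilium growth starts, had the highest endocardial level relative to cardiomyocytes, at 124% (119 to 130%), although 0 of the 3 was called. Cep164, a distal appendage protein that docks the centriole at the membrane, stood at 47.3, 44.1 and 47.4 CPM in cardiomyocytes and 53.8, 61.8 and 62.9 CPM in endocardial nuclei. Cep164 and Ttbk2, the kinase it recruits, also overlap another gene on the same strand, as do Ift74, Ift80 and Rpgrip1l. Over all 38 members the median log2 ratio of endocardial to cardiomyocyte level was 0.01, against -0.09 over all measured genes. In the order of endocardial to cardiomyocyte level the basal body and transition zone groups led, and their intervals meet. Most of the transition zone difference came from Cep290, as given above. IFT-A was last, and its interval overlaps no other.

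**Figure D3:**
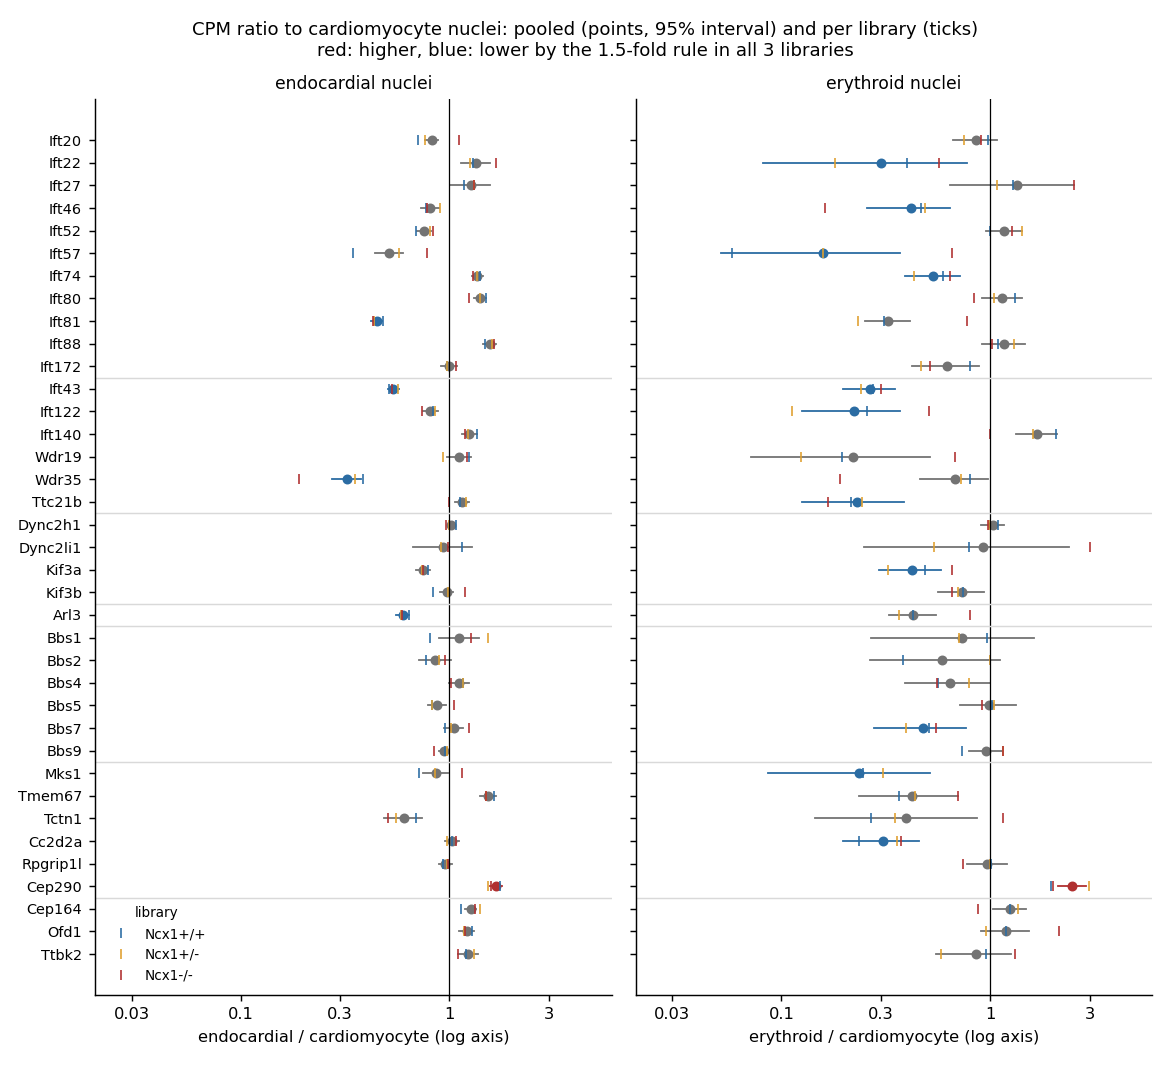
Ratio of the level of 37 genes in endocardial and erythroid nuclei to that in cardiomyocytes (x axis, log scale), by gene ordered by role (y axis); ticks are the 3 libraries, points with bars the pooled ratio with its 95% counting interval, and red and blue mark genes called higher and lower. Wdr35, Ift81, Ift43 and Arl3 lie left of 1 and Cep290 right of it in endocardial nuclei, while 11 genes lie left of 1 by the rule in erythroid nuclei.

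Endocardial subsets ran from 0.88 to 1.21 times the rest of the class in the summed level. In Ncx1+/- sub-cluster 3 stood at 1374 CPM (1276 to 1479), as high as the mesenchyme-type nuclei of that library at 1373 CPM. Set against the rest of the class, sub-cluster 3 (Tbx5 among its leading genes) had 1.21 times the level (1.16 to 1.26) and sub-cluster 5 had 0.88 times (0.83 to 0.93). Sub-cluster 5 had the low median depth of 2241 UMIs per nucleus. Sub-clusters 0 (Grin2c), 10 (mitosis genes such as Kif23) and 11 (Gja5 and Cyp26a1) stood at 0.93, 0.91 and 0.94 times. Nuclei of the 3 genotypes were spread unevenly over them: Ncx1-/- nuclei lay mostly in sub-clusters 0, 3 and 8 (667, 444 and 181 nuclei) and Ncx1+/+ nuclei mostly in 1, 2, 4, 6, 7 and 10 (405, 347, 350, 308, 263 and 160 nuclei).

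Single members rarely set a subset apart. Each subset was compared in the libraries with at least 50 of its nuclei. Ift46, an IFT-B subunit, was higher in sub-cluster 3, where 1.93% of all measured genes were. Wdr19 (IFT144), an IFT-A subunit, was higher in sub-cluster 6 (1.99% of genes), while Ift22, Wdr35 and Bbs4 were lower there (5.8%). Of the 3 members lower in sub-cluster 5 (7.03% of genes) 2 were Ift81 and Bbs9. Ift74, Wdr19 and Wdr35 were lower in sub-cluster 10 (7.22%) and Cep290 in sub-cluster 11 (3.92%). No member was higher in sub-clusters 5, 10 and 11, against 6.55, 3.46 and 3.11% of all genes, and none was lower in sub-cluster 3, against 2.39%. Sub-clusters 0, 1, 2, 4, 7 and 8 had 0 members called in either direction. Of all genes, 0.801, 3.24, 2.57, 2.95, 3.47 and 3.18% were higher there and 2.65, 4.61, 5.89, 6.17, 5.29 and 2.86% lower.

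In mesenchyme-type nuclei the members summed to 127% of the endocardial level over the 3 libraries. Relative to cardiomyocytes the transition zone group stood at 148% (132 to 165%), the basal body group at 152% (131 to 175%), the motors at 125.1%, the BBSome at 122%, IFT-A at 114%, the GTPases at 110% and IFT-B at 107%. The groups that led in endocardial nuclei led here too. Under the rule for all 3 libraries 0 of 37 members were called against the endocardial class in either direction, where 2.4% of genes were higher and 6.15% lower. The 7 Ncx1-/- nuclei take part in that rule.

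In Ncx1+/+ and Ncx1+/- alone 2 of 34 members were higher in mesenchyme-type than in endocardial nuclei and 0 were lower, against 5.15 and 7.88% of all genes. Both belong to IFT-A, and both were lower in endocardial nuclei than in cardiomyocytes. Ift43 stood at 70.6 and 78.7 CPM in mesenchyme-type nuclei, 1.53 times the endocardial level (1.24 to 1.86). Wdr35 stood at 24.8 and 10.6 CPM, 2.73 times the endocardial level (1.79 to 4.04), with ratios of 3.13 and 1.54. These nuclei also carried more cardiomyocyte marker RNA than endocardial nuclei (14.4 and 18.2% against 9.96 and 11.5%), and the part of that RNA in the difference was not tested. The median log2 ratio of the 34 members was 0.35, against -0.01 over all genes.

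Against cardiomyocytes 4 of 38 members were higher in mesenchyme-type nuclei and 0 lower, where 7.19 and 15.3% of all genes were. Ttc21b (IFT139), an IFT-A subunit, stood at 49.6, 65.9 and 103 CPM, the last from 3 counts, and was 1.99 times as high (1.59 to 2.47). The IFT-B genes Ift80 and Ift74 were 1.94 and 1.82 times as high.

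Erythroid nuclei, marked by haemoglobin genes, were the class with the lowest cilium sum. Relative to cardiomyocytes 11 of 38 members were lower and 1 higher, against 20.3 and 15.5% of all genes. TMM scaling gave 18 lower and 1 higher, against 26.3 and 9.38%. The median log2 ratio was -0.59, against -0.04 over all genes. By role the lower ones were 4 of 11 IFT-B genes (Ift22, Ift46, Ift57 and Ift74), 3 of 6 IFT-A genes (Ift43, Ift122 and Ttc21b), 1 motor (Kif3a), 1 BBSome gene (Bbs7) and 2 transition zone genes (Mks1 and Cc2d2a). IFT-A stood at 45.4% of the cardiomyocyte level (39.2 to 52.2%) and IFT-B at 68.8% (63.0 to 75.0%). Of the 135, 149 and 29 erythroid counts of the transition zone group, Cep290 alone gave 179. The other genes of that group together were lower than in cardiomyocytes in each library. With Cep290 included the transition zone group stood at 100% (89.3 to 112%), and the basal body group at 116% (101 to 134%). With TMM scaling, which assumes that most genes do not differ between classes, these 2 groups stood at 83.2% (74.1 to 93.0%) and 96.5% (83.8 to 111%), so the side of 100% on which the basal body group lies depends on the scaling, while IFT-A and IFT-B stayed below it at 37.6 and 57.1%.

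Ttc21b was among the lowest, at 6.76, 6.56 and 4.17 CPM in erythroid nuclei against 31.4, 27.0 and 24.8 CPM in cardiomyocytes, 4.36-fold lower (2.59 to 7.98). Ift43 stood at 24.1, 21.9 and 25.0 CPM, a 3.75-fold lower level (2.85 to 5.04). Cc2d2a, a transition zone protein, stood at 8.69, 13.1 and 12.5 CPM against 36.9, 36.8 and 33.5 CPM, 3.26-fold lower (2.19 to 5.10). No erythroid value of these 3 genes reached any cardiomyocyte value. Ift46 stood at 10.6, 9.84 and 4.17 CPM, 2.40-fold lower (1.56 to 3.88). Mks1, which helps to form the transition zone gate, had 6 erythroid counts in all and 0 in Ncx1-/-, where 3 counts would be the limit that a count of 0 allows.

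Cep290 was the exception. It stood at 70.5, 101 and 58.4 CPM in erythroid nuclei against 35.9, 33.9 and 29.1 CPM in cardiomyocytes, 2.48-fold higher (2.12 to 2.88). The lowest erythroid value lay above the highest cardiomyocyte value. In Ncx1+/+ and Ncx1+/- alone Ift140, an IFT-A subunit, was called higher too (23% of genes), and 16 of 37 members were lower (27.5%).

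Part of the erythroid counts lay at the level that cardiomyocyte RNA alone would give. If every erythroid nucleus took up cardiomyocyte RNA at the share its markers show, 17 of 38 members had erythroid counts within counting error of that amount and 21 had more. None had fewer. Ttc21b had 14 counts against 19.8 from such RNA, Ift43 51 against 61.6, Cc2d2a 24 against 25.3 and Mks1 6 against 7.94. For these genes the erythroid level cannot be told apart from background. Cep290 had 179 counts against 23.6, and Dync2h1 257 against 78.9. The assumption that all genes are taken up in the ratio of these markers was not tested.

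Against endocardial nuclei 10 of 37 members were lower in erythroid nuclei and 0 higher, where 20.4 and 17.4% of all genes were. Ttc21b was 5.01-fold lower (2.97 to 9.20). Tmem67 (meckelin), a membrane protein of the transition zone, stood at 5.79, 6.56 and 12.5 CPM in erythroid and 25.8, 22.4 and 26.7 CPM in endocardial nuclei, 3.63-fold lower (2.19 to 6.53). The other 8 were Ift22, Ift43, Ift46, Ift74, Wdr19, Bbs7, Mks1 and Cc2d2a. The median log2 ratio was -0.52, against 0.19 over all genes. In Ncx1+/+ and Ncx1+/- alone 1 of 34 members was higher (29.8% of genes) and 14 lower (26%). Erythroid counts are few: the members had 4 (Ift22) to 257 (Dync2h1) over the 3 libraries. Differences above 1.5-fold may therefore have been missed at this depth, and the rule calls none below it.

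Cluster 14 stayed unnamed, although the epicardial list had its highest marker score (0.745), with Tbx18 and Tcf21 among its leading genes. Its summed epicardial markers stood at 1418, 347 and 1221 CPM, below its cardiomyocyte markers at 9279, 14035 and 9260 CPM. It held 175, 24 and 215 nuclei and had a high cilium sum, at 1321, 1554 and 1472 CPM. The 24 Ncx1+/- nuclei, with the lowest epicardial sum, take part in the calls that follow. Against cardiomyocytes 3 of 38 members were higher (Ift22, Bbs2 and Cep164) and 0 lower, where 6.08 and 6.71% of all genes were. Cep164 was 1.87 times as high (1.55 to 2.24). Against endocardial nuclei 4 of 37 were higher and 0 lower (9.28 and 10.4%): Wdr35 at 5.09 times (3.62 to 7.04), Ift57 at 3.53, Ift81 at 2.33 and Bbs2 at 2.24 times. Unnamed clusters 17 and 18, with 43, 20 and 115 and 35, 17 and 89 nuclei, summed to 1265, 1330 and 1634 and to 1376, 1262 and 1645 CPM.

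Between genotypes 3 cilium genes stood apart as higher and 1 as lower in Ncx1-/- endocardial nuclei, and none did in cardiomyocytes. To stand apart, a gene had to differ from each of the other libraries by 1.5 times or more in 1 direction, with 1 outside both counting intervals. Of 11027 genes measured in endocardial nuclei, 7.3% were higher in Ncx1-/- by this rule and 4.21% lower. The members, at 3 and 1 of 37, lie near these shares. The endocardial nuclei of Ncx1-/- and of the other libraries come mostly from different sub-clusters, as given above.

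Ift20, which works at the Golgi as well as in the cilium to send membrane proteins to it, had the most counts of the 4. It stood at 26.4, 27.9 and 46.1 CPM. The first 2 were alike and the Ncx1-/- level was 1.74 times that of Ncx1+/+ (1.48 to 2.06) and 1.65 times that of Ncx1+/- (1.39 to 1.97). The gene (ENSMUSG00000001105, chr11:78536361-78541737, plus strand) spans 5.377 kb. In cardiomyocytes it stood at 37.5, 36.4 and 41.3 CPM, a ratio of 1.10 (1.02 to 1.19) to Ncx1+/+.

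Ift22, a small GTPase-like IFT-B subunit, stood at 6.26, 7.59 and 12.3 CPM in endocardial nuclei, 1.97 (1.41 to 2.75) and 1.62 (1.15 to 2.29) times the levels of Ncx1+/+ and Ncx1+/-. It also stood in the same order in cardiomyocytes, at 4.85, 6.07 and 7.35 CPM, a ratio of 1.51 (1.23 to 1.87) to Ncx1+/+, but the interval of its ratio to Ncx1+/- included 1 (1.21, 0.988 to 1.49). Mks1 stood at 8.44, 9.08 and 14.2 CPM in endocardial nuclei, with ratios of 1.69 (1.252 to 2.28) and 1.57 (1.15 to 2.15). In cardiomyocytes Mks1 stood at 11.8, 10.7 and 12.4 CPM, and its ratios had intervals that include 1. Ift22 (ENSMUSG00000007987, chr5:136908150-136915404, plus strand) spans 7.255 kb and Mks1 (ENSMUSG00000034121, chr11:87853215-87863803, plus strand) 10.589 kb.

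Wdr35 was the member lower in Ncx1-/- endocardial nuclei. It stood at 7.92, 6.90 and 4.16 CPM, from 91, 60 and 26 counts, which is 0.526 (0.326 to 0.821) and 0.603 (0.366 to 0.971) times the levels of Ncx1+/+ and Ncx1+/-. In cardiomyocytes it stood at 20.6, 19.6 and 21.9 CPM. The endocardial call was lost without sub-cluster 0, since the ratio to Ncx1+/- missed the fold limit and both intervals included 1. Wdr35 was still the lowest member there, at 0.658 and 0.726 times the other levels, from 18 counts. Without that sub-cluster 0 members were lower (4.15% of genes), and 4 of 35 were higher (8.89%), Ift20, Ift22, Bbs5 and Mks1. Bbs5, a BBSome subunit that binds membrane lipids, stood at 16.3, 16.4 and 24.0 CPM in the whole class, 1.48 and 1.46 times the other levels. It lay just under the fold limit.

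In Ncx1+/- endocardial nuclei 1 member stood apart, and 0 were higher (0.145% of genes). Wdr19 stood at 12.4, 8.16 and 14.9 CPM, so Ncx1+/- was at 0.661 times the Ncx1+/+ level (0.490 to 0.885). It was lower by the rule, as were 0.136% of all genes. The count is 1 member with 71 counts in that library, and the call was lost without sub-cluster 5, where 0.119% of genes were lower. The log2 ratio to Ncx1+/+ was then -0.54, against -0.60 with it, so it crossed the fold limit by a small change. In cardiomyocytes Wdr19 stood at 9.91, 8.77 and 12.3 CPM, in the same order.

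No other endocardial member passed the rule. Ift57 was at 1.73 times the Ncx1+/+ level (1.20 to 2.48), as far as Ift20, but was under the fold limit to Ncx1+/-. Over the 37, the ratio of Ncx1-/- to Ncx1+/+ ran from 0.526 for Wdr35 to 1.97 for Ift22, with counting intervals above 1 for 8 genes and below 1 for 6. Ttc21b stood at 35.5, 32.6 and 24.7 CPM and Cep290 at 63.0, 51.8 and 45.9 CPM, ratios of 0.695 (0.573 to 0.838) and 0.730 (0.634 to 0.838) to Ncx1+/+. Both were also lower in Ncx1-/- cardiomyocytes, at 0.791 (0.720 to 0.869) and 0.811 (0.743 to 0.885). Ift88 stood at 43.4, 44.3 and 47.1 CPM in endocardial nuclei. The median log2 ratio of the 37 members to Ncx1+/+ was 0.06 and that of all genes 0.10. With TMM scaling the medians were -0.07 and -0.03, and Mks1 no longer stood apart. The share of higher genes among all that stood apart was then 45.1%, against 63.4% without it.

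In cardiomyocytes 0 of 38 members stood apart in Ncx1-/- in either direction, where 4.02% of 13963 genes were higher and 2.99% lower, nor in Ncx1+/- (0.193 and 0.172%). The ratio of Ncx1-/- to Ncx1+/+ ran from 0.765 for Ift57 to 2.29 for Dync2li1, with 14 intervals above 1 and 6 below. Dync2li1, with the fewest counts, stood at 1.21, 2.02 and 2.77 CPM, but its ratio to Ncx1+/- was 1.37, under the fold limit. The median log2 ratio to Ncx1+/+ was 0.06, against -0.03 over all genes. In erythroid nuclei 5 members had the counts for the comparison and 0 stood apart (5.25% higher and 6.82% lower in Ncx1-/-, 0.314 and 0.836% in Ncx1+/-).

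**Figure D4:**
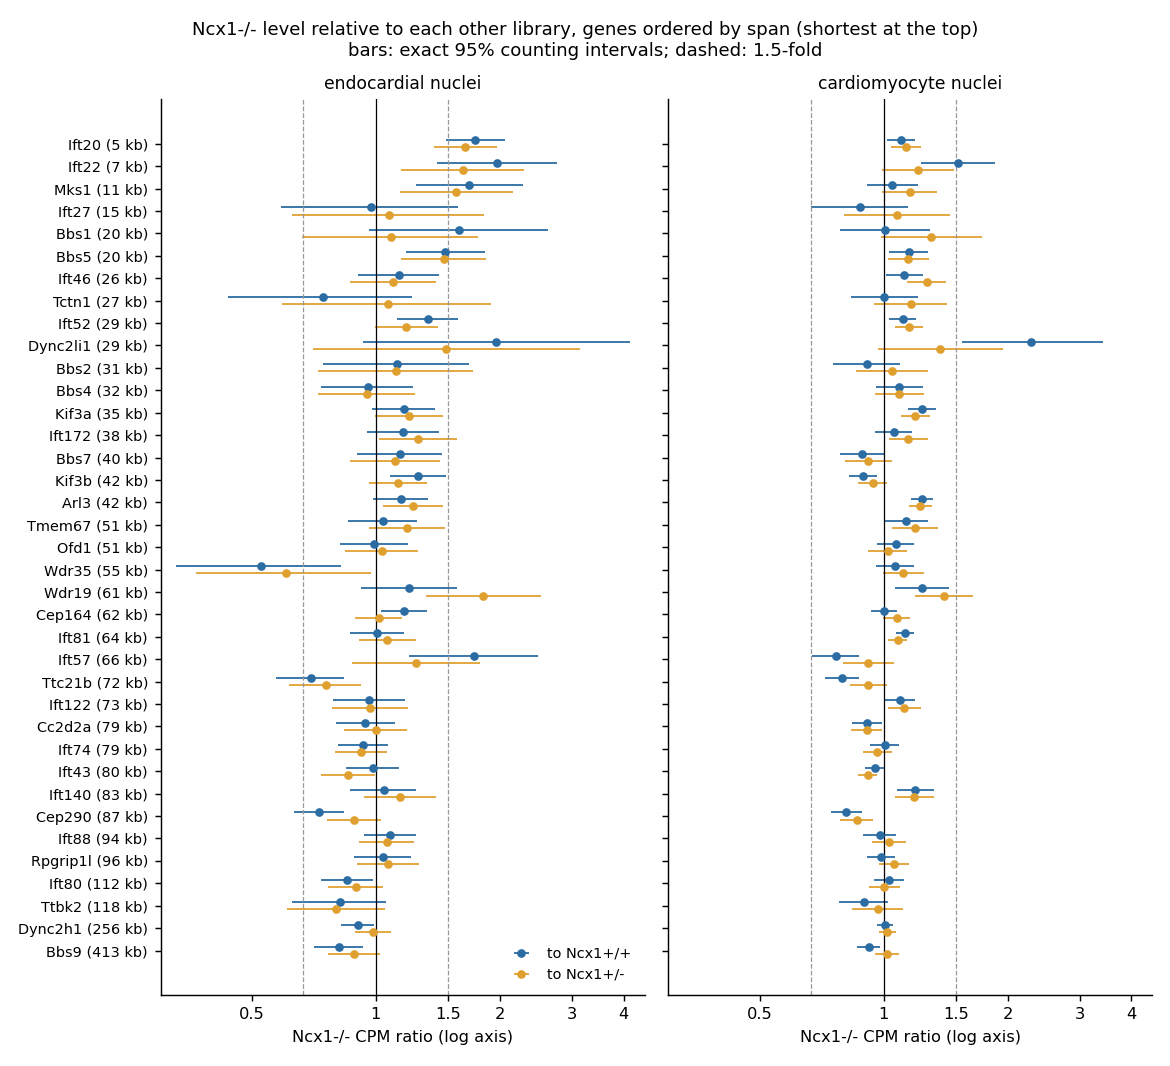
Ratio of the level of 37 genes in Ncx1-/- to that in Ncx1+/+ and in Ncx1+/- (colours; x axis, log scale) by gene ordered by span, shortest at the top (y axis), with 95% counting intervals as bars and dashed lines at 1.5-fold; 1 library per genotype. In endocardial nuclei Ift20, Ift22 and Mks1, at the top, lie right of the 1.5-fold line for both ratios, and Wdr35 lies furthest left.

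The endocardial ratios followed the length of the gene. Ift20, Ift22 and Mks1 are the only 3 members in the shortest of 4 equal groups of measured genes, those up to 12.4 kb from first to last annotated base, and each had a ratio to Ncx1+/+ with an interval above 1. Of the 13 members in the longest group, from 67.9 kb, 10 had a ratio below 1, with 5 intervals below 1 and 0 above. Spearman's rank correlation between log2 ratio and span was -0.59 over the 37 members and -0.54 over all 11005 genes with a span. Genes of 1 library pair share its depth and are not independent.

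Over all genes the same held. In the shortest group 17.7% of genes stood apart as higher in Ncx1-/- endocardial nuclei and 1.34% as lower, and in the longest group 2.73% and 11.1%. Beside that share, 3 of 3 short members were higher. In cardiomyocytes the rank correlation was -0.36 over 38 members and -0.34 over 13922 genes, and 7.70% of short and 2.21% of long genes were higher. Over 71 other cilium genes in endocardial nuclei it was -0.44. Ncx1-/- also had the largest share of Malat1, a nuclear RNA, and its part in the relation to gene length was not tested.

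**Figure D5:**
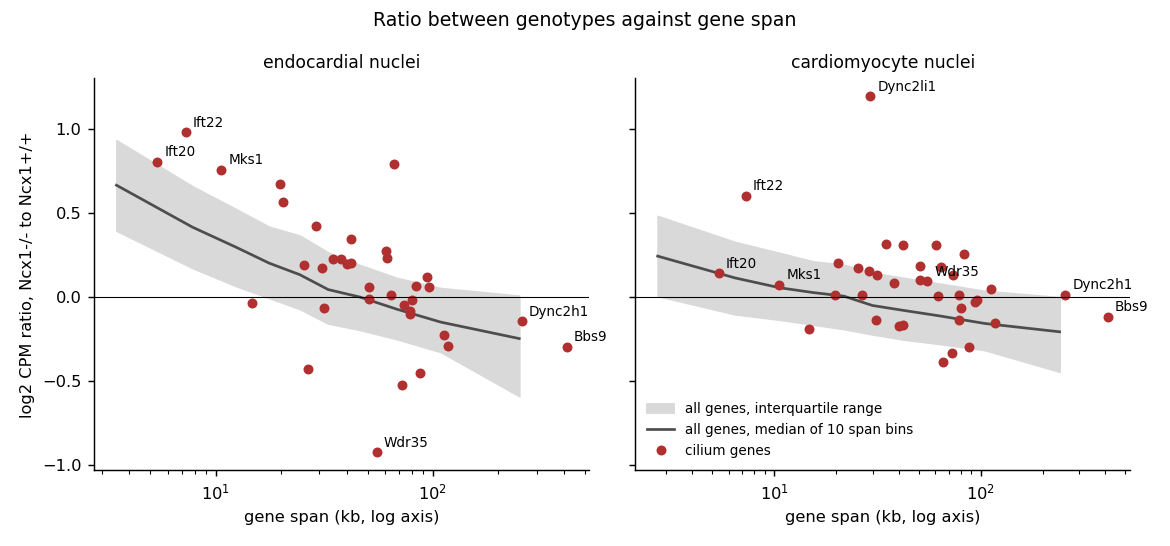
Log2 ratio of Ncx1-/- to Ncx1+/+ (y axis) against gene span in kb (x axis, log scale) in endocardial nuclei and cardiomyocytes; points are the cilium genes named in the other plots, and the line and band give the median and the middle 50% of all measured genes in 10 bins of span. Short members, Ift20, Ift22 and Mks1, lie above 0 and most long members at or below it in endocardial nuclei.

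Within single endocardial sub-clusters the counts were too few to settle the 3 short genes. Summed, Ift20, Ift22 and Mks1 stood at 41.1, 44.6 and 72.7 CPM in the class, 1.77 times the Ncx1+/+ level (1.55 to 2.01). In sub-clusters 3, 5, 8 and 11, those with at least 37 nuclei in each library, the ratio was 2.77, 1.31, 1.42 and 2.05. All 4 were above 1, and each interval included 1. The first rests on 3 counts in Ncx1+/+. The ratios to Ncx1+/- were 0.942 (0.652 to 1.38), 1.66, 1.56 and 2.17, again with 1 inside each interval, against 1.63 (1.42 to 1.87) in the class. Of the 4, sub-cluster 3 had the most Ncx1-/- counts of these genes (116), and there the level was not detectably higher than in Ncx1+/-. The rank correlation of ratio and span over the genes measured there was -0.10, 0.02, -0.28 and -0.35, so the relation was weaker within sub-clusters than in the class, at lower counts.

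Other genes of the cilium, 91 in 7 lists, were compared by the same rules. Of 71 measured in endocardial nuclei, 1 was higher in Ncx1-/- and 0 lower, against 7.3 and 4.21% of all genes. Of 81 in cardiomyocytes 1 was higher and 1 lower, against 4.02 and 2.99%. These counts lie below the shares over all genes. Bbs10, a chaperonin-like protein needed to assemble the BBSome, was the higher one in both, at 3.31, 3.68 and 6.08 CPM in endocardial nuclei (1.84, 1.14 to 2.97, to Ncx1+/+) and 9.61, 10.2 and 18.4 CPM in cardiomyocytes (1.91, 1.66 to 2.20). It stood in the same order in each. Rfx4, an X-box binding factor, was lower in cardiomyocytes, at 1.36, 1.49 and 0.805 CPM. In erythroid nuclei 1 of 24 was higher and 1 lower, against 5.25 and 6.82% of all genes. Smo, the hedgehog signal transducer, stood at 57.0, 49.2 and 117 CPM and was higher in Ncx1-/-. Kif24, a kinesin that restrains cilium growth, was lower at 126, 115 and 54.2 CPM. These Ncx1-/- values rest on 100 nuclei with 239801 UMIs, where the cardiomyocyte marker share was highest (46.9%).

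Of 84 other cilium genes measured, 12 were higher and 7 lower in endocardial nuclei than in cardiomyocytes, against 15 and 22.9% of all genes. The first share is near that of all genes and the second below it. Wdr60, an intermediate chain of dynein-2, stood at 37.1, 35.3 and 43.2 CPM in endocardial nuclei against 4.70, 4.72 and 5.83 CPM in cardiomyocytes, 7.46-fold higher (6.68 to 8.35), although Dync2h1, the heavy chain of the same motor, was level. Invs (inversin) was 2.85-fold higher (2.70 to 3.01). Pkd1 and Pkd2, the polycystins of the ciliary membrane, were 1.90-fold (1.75 to 2.06) and 1.79-fold (1.71 to 1.87) higher. Pkd2 stood at 122, 105 and 102 CPM against 63.6, 61.0 and 62.5 CPM.

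In erythroid nuclei 18 of 81 were lower and 9 higher than in cardiomyocytes, near the 20.3 and 15.5% of all genes. Of 14 ciliary membrane and signalling genes 6 were lower: Tulp3, Pkd2, Adcy3, Kif7, Evc and Sufu. Tulp3, which brings receptors into the cilium together with IFT-A, stood at 10.6, 18.6 and 12.5 CPM against 51.3, 48.2 and 48.7 CPM, 3.49-fold lower (2.46 to 5.15). Evc had 0 counts in all 3 erythroid groups. Of 7 genes of cilium disassembly 4 were higher: Aurka, Nek2, Kif2a and Plk1. All 4 also serve mitosis. Kif2a stood at 645, 720 and 680 CPM against 158, 156 and 122 CPM, 4.68-fold higher (4.43 to 4.94), and Aurka at 129, 183 and 129 CPM against 55.3, 56.5 and 53.0 CPM, 2.76-fold higher (2.46 to 3.09).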

How the data were processed

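Nuclei were sorted by flow cytometry and libraries made with the 10x Genomics kit version 3.1, per the labels. The authors deposited whole-number UMI counts per gene and barcode, without normalisation. Cell Ranger 6.1.0 and mm10 were used per the submitters' processing notes, whereas the file headers name version 9.0.0. Settings for intronic reads are not given in the sources used here.

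Barcodes passed with 500 or more genes and up to 5% mitochondrial UMIs, and the top 8% of Scrublet doublet scores per library (1098, 1038 and 1094 nuclei) were removed. Nuclei were clustered with scanpy 1.11.5 (2000 variable genes, 30 components, 15 neighbours, Leiden resolution 1.0) and named from fixed marker lists, which the rebuilt names depend on. Clusters 13 to 19 apart from 15 stayed unnamed, and cluster 9, whose leading genes include more markers of another class than of its own, was held out. The endocardial lineage was clustered again. Sub-cluster 9, with at least 5 cushion markers 1.5 times above the rest, is the mesenchyme-type class, and sub-clusters 12 and 16 were set aside as mixed.

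Counts were summed per class and library and scaled to CPM. With 1 library per genotype there is no test. Ratios carry 95% exact conditional (Clopper-Pearson) intervals, which cover counting error only, and the same rules over all genes give the background. The count rules were tested on simulated counts that hold counting error only. The TMM factors were checked against edgeR 4.0.16 on the summed erythroid and cardiomyocyte counts. Gene spans come from GENCODE M21, which 27645 of 27998 gene identifiers (98.7%) matched. 1 member counted in the sums is not reported here by name. Talpid3, Kiaa0586, Dnai1 and Dnai2 of the other lists are not analysed here.

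Members and lists were chosen with earlier results of these data known. Named members stood apart in a genotype, were among the 5 furthest apart between classes in either direction, or had the most counts of their role. Ift57, Kif3b, Bbs5, Ift88, Ttc21b in endocardial nuclei, Dync2li1, Ift140 and the named genes of other lists were picked after their values were seen. Alternatives were scaling (TMM, median of ratios, no haemoglobin genes), the fold and count minimum, the clustering resolution, gene and doublet filters, the cilium genes left out of clustering, and leaving out Ncx1-/-. For the endocardial genotype calls, cardiomyocyte RNA at the share shown by its markers was also subtracted. Leaving out sub-clusters 0 or 5, or adding or leaving out cardiomyocyte clusters, was chosen after seeing the data.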

Additional observations from a re-analysis of the deposited data

Results flagged for a closer look

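For 2 members the ratio of Ncx1-/- to Ncx1+/+ lay above 1 in endocardial nuclei and below 1 in cardiomyocytes, with both counting intervals excluding 1. The difference between the classes was not tested, since each class has 1 library per genotype. Ift57, an IFT-B subunit, stood at 5.74, 7.93 and 9.93 CPM in endocardial nuclei, a ratio of 1.73 (1.20 to 2.48), and at 16.6, 13.9 and 12.7 CPM in cardiomyocytes, a ratio of 0.765 (0.670 to 0.872). The endocardial interval of its ratio to Ncx1+/- ran from 0.874 to 1.79. Kif3b, a kinesin-2 motor subunit, stood at 35.7, 39.9 and 45.1 CPM in endocardial nuclei, a ratio of 1.27 (1.08 to 1.48), and at 42.8, 40.5 and 38.1 CPM in cardiomyocytes, a ratio of 0.890 (0.823 to 0.963). In both genes the Ncx1+/- level lay between the other 2 in both classes. Ift57 levels drew nearer between the classes in Ncx1-/-, from 5.74 against 16.6 CPM to 9.93 against 12.7 CPM. The median share of the cardiomyocyte markers in endocardial nuclei went from 9.96 to 14.1%. The part of cardiomyocyte RNA in the difference was not tested.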

How the results depend on the processing

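No paired analysis was possible because each genotype has 1 library. Under other settings 146 summary values were labelled as near their main value and 21 as moved. Near values could differ from the main one, so the 146 were not all unchanged. Among them are the 2 members in place of 3 and the erythroid median that changed sign, both given below. Counts that were 0 in both settings are among them too, such as members higher in Ncx1-/- cardiomyocytes. For single genes 121 calls held, 12 were lost and 0 changed direction. With TMM and median-of-ratios scaling the endocardial median log2 ratio of the members was -0.072 and -0.080, a change of sign from 0.06, the all-gene median also changing sign (-0.03 and -0.04, from 0.10). Then 2 members in place of 3 were higher in Ncx1-/- (4.63 and 4.53% of genes), and higher genes were 45.1 and 44.2% of all genes that stood apart, against 63.4%. In cardiomyocytes that share was 67.4% with TMM, against 57.4%. Members lower in Ncx1-/- endocardial nuclei were 2 at a lower fold limit (8.03% of genes) and 0 without sub-cluster 0 (4.15%), against 1 (4.21%). Ift20 and Ift22 kept their call in all 9 settings, among them the subtraction of cardiomyocyte RNA from endocardial nuclei. Wdr35 lost its call without sub-cluster 0 and Mks1 under both scalings. Wdr19 lost its call without sub-cluster 5, at resolution 2.0 and with cilium genes left out of clustering. In erythroid nuclei 2 members were higher in Ncx1-/- when genes with at least 1 count were taken (4.66% of genes), and the median log2 ratio changed sign, from -0.13 over 5 members to 0.11 over 38.

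With TMM 1 member (Ift88) in place of 2 was higher in endocardial nuclei than in cardiomyocytes (14.9% of genes), Cep290 and Arl3 each missing the rule in 1 library, and the endocardial sum was 97.6% of the cardiomyocyte sum. The erythroid sum was 63.7% of the cardiomyocyte and 63.5% of the endocardial sum, against 76.8 and 80.3%, and 18 members in place of 11 were lower than in cardiomyocytes (26.3% of genes). Higher genes were then 26.3% of all genes called between these classes, against 43.2%, and between erythroid and endocardial nuclei 28.1%, against 46.1%. In Ncx1+/+ and Ncx1+/- alone 2 members were higher in erythroid nuclei than in cardiomyocytes (23% of genes) and 1 than in endocardial nuclei (29.8%), as was 1 at resolution 2.0 (18.2%). Members higher in mesenchyme-type than in endocardial nuclei were 1 with at least 1000 genes (2.37% of genes), 1 without the doublet filter (2.87%), 1 with cilium genes left out of clustering (2.95%) and 2 without Ncx1-/- (5.15%), against 0 (2.4%). Shares of nuclei with a member UMI fell to 82.2, 80.0, 72.7 and 88.3% in cardiomyocyte, endocardial, erythroid and mesenchyme-type nuclei when thinned. The cause of these shifts was not tested. The 7 mesenchyme-type nuclei of Ncx1-/- allow no genotype comparison.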
